A study of Oryza sativa with 6 samples.

Results

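The 6 genes described here carry light signals in rice: the phytochrome genes PHYA, PHYB and PHYC, the phytochrome-interacting factor-like genes PIL13 (also called PIL1) and PIL15, and COP1 (also called PPS). They were picked by locus identifier, and all 6 were found among the 27397 genes of the deposited table of normalized reads. Phytochromes are photoreceptors that switch between forms in red and far-red light. Their active form enters the nucleus and binds phytochrome-interacting factors, a group of bHLH transcription factors, and many of these are then degraded. COP1 is an E3 ubiquitin ligase that marks light-signalling proteins for degradation in the dark. In grasses these genes are known for setting stem and internode length, greening and flowering time.

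RNA was sequenced from the pine1-1a knockout line in the rice cultivar Nipponbare and from wild-type Nipponbare, with 3 libraries each. Each library pooled 8 plants, taken untreated at 20 days after germination under 16 h days, and used about 1 cm of the plant base with stem and shoot apical meristem. Only 1 knockout allele was sequenced, and nothing in the labels separates the pools by sowing, so the p-values below speak to the variation among these pools. PINE1 encodes a zinc finger transcription factor that, per the study's title, keeps internodes unelongated.

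PINE1 (Os12g0617000) had 5199, 5044 and 4173 normalized reads in the libraries labelled pine1, against 3569, 3674 and 2943 in wild type. It was therefore read in every library and higher in those labelled pine1, and its RNA does not check the labels, since the labels do not say how the allele disrupts the gene. Every direction below refers to the libraries labelled pine1. The libraries held between 27918842 and 36250239 reads on genes. Of the fixed markers of meristem and stem, 3 of 5 rose in pine1 (OSH1, OSH15 and OSH6). The other 2 were not called: Os05g0129700 (log2 -0.02) and Os03g0771500, which was lower in pine1 (log2 -0.59, limma unadjusted p = 0.0449). The summed level of the 5 ranged from 3599 to 4476 normalized reads in pine1 and from 2036 to 2640 in wild type. Leaf blade markers summed to between 57045 and 64862 normalized reads in pine1 and to between 44637 and 53057 in wild type, with 2 of 5 called higher. Over all genes tested, 4.02% were called higher. Root markers summed to between 199 and 447 in pine1 and to between 401 and 640 in wild type, but the lower sum came from 1 locus, Os02g0662000 (log2 -1.18, not called). The other 3 root loci had log2 fold changes above 0 (1 called higher), all 4 had an unadjusted p under 0.05, and Os03g0107300 was at 0 in wild-type replicates 1 and 3.

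Whether light-signalling transcripts differ in the basal stem and apex when PINE1 is knocked out was examined gene by gene. PIL13 rose in pine1, by 1.46-fold, and it was the 1 of the 6 genes that passed the test; PHYA, PHYB, PHYC, PIL15 and COP1 did not pass. A gene was called at a limma adjusted p under 0.05, with p-values adjusted over all 24149 genes tested, and 6.46% of these were called in either direction, 4.02% as higher and 2.44% as lower in pine1. One call among 6 is thus read against a background of 6.46%. For PIL13 and PHYA, 2 of the 6, no pine1 library fell within the wild-type range or the reverse, and such separation held for 26.4% of all genes tested, 13.5% with pine1 higher and 12.9% with pine1 lower. In pooled tissue, fewer cells of a type and less RNA per cell cannot be told apart.

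**Figure D1:**
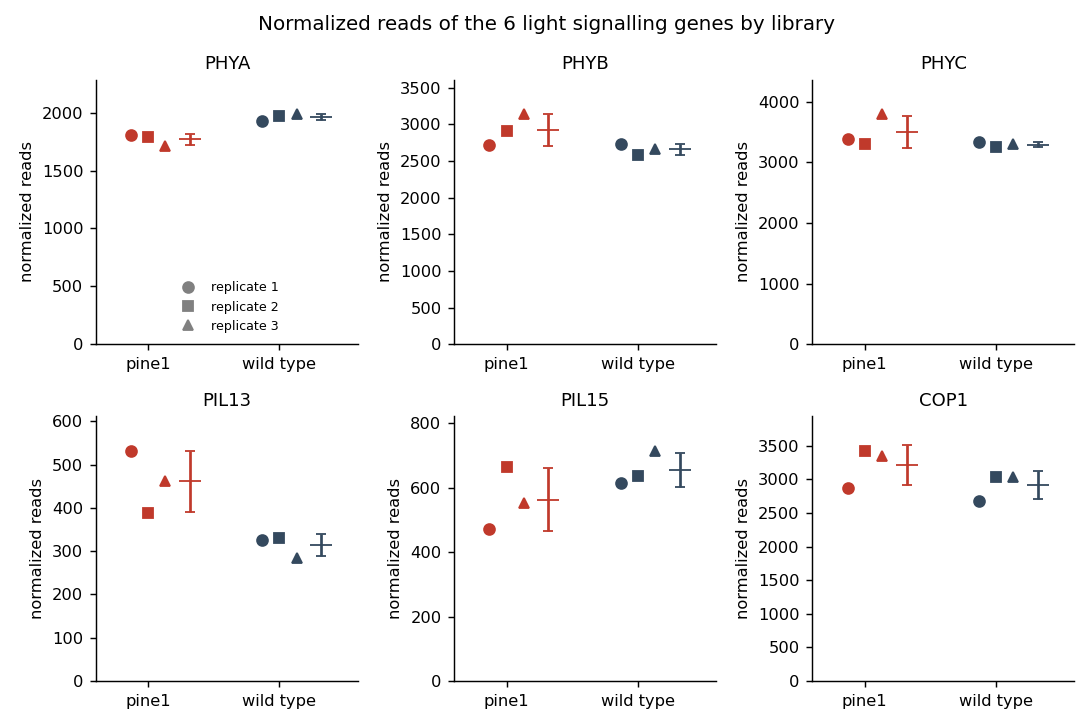
Normalized reads (vertical axes, from 0) of the 6 genes in each pine1 and wild-type library; symbols mark the replicate number, and the bar beside each group is the mean with its SD (n = 3). PIL13 lies at 389 to 531 in pine1 and at 285 to 331 in wild type, PHYA is lower in every pine1 library, and the groups overlap in the other 4 panels.

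The phytochromes are the receptors of the pathway, and phytochrome A is the type that accumulates in darkness and senses far-red light. PHYA (Os03g0719800, chromosome 3) had 1808, 1791 and 1713 normalized reads in pine1 replicates 1 to 3, against 1931, 1969 and 1987 in wild-type replicates 1 to 3. All 3 pine1 libraries lay below all 3 wild-type libraries, by a small margin. The mean was 1771 ± 50.3 normalized reads in pine1 and 1963 ± 28.9 in wild type (SD, n = 3 each). The level in pine1 was thus 0.902 of that in wild type (log2 -0.15, SE 0.05, 95% interval -0.26 to -0.04). PHYA did not pass the adjusted threshold (limma unadjusted p = 0.0157, adjusted p = 0.127), and 20.9% of all genes had an unadjusted p under 0.05. Its replicates lay close together: only 2.69% of the genes tested had a smaller residual SD on the log2 scale. In wild type the coefficient of variation was 1.47%, below the 2.21% that counting of reads alone would give, and in pine1 it was 2.84%, beside 2.41% from counting.

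Phytochrome B senses red light and the red to far-red ratio, and in rice it is needed for phytochrome C to be stable. PHYB (Os03g0309200, chromosome 3) had 2713, 2916 and 3139 normalized reads in pine1, against 2726, 2583 and 2670 in wild type. Replicates 2 and 3 of pine1 were above every wild-type library, and pine1 replicate 1 was within the wild-type range. The mean was 2923 ± 213 normalized reads in pine1 and 2660 ± 71.9 in wild type (SD, n = 3 each). On the log2 scale pine1 differed by 0.13 (SE 0.06, limma adjusted p = 0.255), and the 95% interval of the fold runs from 0.997 to 1.21.

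PHYC (Os03g0752100, chromosome 3), whose product works as a partner of phytochrome B, had 3382, 3299 and 3791 normalized reads in pine1, against 3326, 3243 and 3292 in wild type. Pine1 replicate 3 stood clear of the wild-type libraries, replicate 1 was just above them and replicate 2 was within their range. The mean was 3491 ± 263 normalized reads in pine1 and 3287 ± 41.7 in wild type (SD, n = 3 each) (log2 0.08, SE 0.06, limma adjusted p = 0.470), and the 95% interval of the fold runs from 0.966 to 1.16. Without pine1 replicate 3 the log2 fold change was 0.02. The wild-type coefficient of variation of PHYC, 1.27%, was again below the 1.71% given by counting alone. For none of the 3 phytochrome genes does the interval reach a 1.5-fold difference in either direction; a p above the threshold does not show equal levels.

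The balance between receptor transcripts within a library does not depend on how libraries are scaled, and it does not measure the receptor proteins. Reads of PHYA were 0.666, 0.614 and 0.546 of those of PHYB in pine1, against 0.708, 0.762 and 0.744 in wild type. Every pine1 library was below every wild-type library, with a mean ratio of 0.609 ± 0.060 in pine1 and 0.738 ± 0.027 in wild type (SD, n = 3 each). The difference in the log2 ratio was -0.28 (two-sided exact permutation p = 0.1, the smallest that 3 against 3 libraries can give). For PHYC over PHYB, the ratio of reads was 1.25, 1.13 and 1.21 in pine1 and 1.22, 1.26 and 1.23 in wild type. These groups overlapped, and the log2 ratio differed by -0.05 (exact permutation p = 0.4). Since transcript lengths differ between genes, such a ratio is compared between libraries and does not say which of the transcripts is the more abundant.

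Of the 2 PIL genes, PIL13 is annotated in the authors' deposited table as a bHLH protein that regulates internode elongation under drought. In rice it is known to promote internode elongation, to fall under drought, and to cycle over the day with a peak in the light period. PIL13 (Os03g0782500, chromosome 3) had 531, 389 and 462 normalized reads in pine1, against 325, 331 and 285 in wild type. The lowest pine1 library was above the highest wild-type library. The mean was 461 ± 71.2 normalized reads in pine1 and 314 ± 25.2 in wild type (SD, n = 3 each). PIL13 rose by 0.55 on the log2 scale (SE 0.12, 95% interval 0.26 to 0.83, limma adjusted p = 0.0346), an interval of 1.20-fold to 1.78-fold. The authors' deposited table gives -0.56 for wild type over pine1, with an adjusted p of 0.0028. In simulated data, from a single draw, false calls were a larger share of all limma calls than the threshold allows. Calls near the threshold were not counted apart, so whether the adjusted p of PIL13 is too small was not tested. In size, 89.9% of the genes tested had a smaller absolute log2 fold change.

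The PIL13 call rested on all libraries but pine1 replicate 2. Leaving out pine1 replicate 2 kept it (limma adjusted p = 0.0186). Leaving out pine1 replicate 1 (0.0797) or 3 (0.0921) ended it, as did leaving out wild-type replicate 1 (0.0868), 2 (0.0712) or 3 (0.111). Across these 6 fits the log2 fold change stayed between 0.44 and 0.66.

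PIL13 is known to follow the daily clock, so genes of the clock, whose levels also depend on when plants were cut, were read beside it. None of 9 fixed clock loci was called by limma, although 3 had an unadjusted p under 0.05 and DESeq2 called 1. Limma called 2 of them with the replicate block, 2 without pine1 replicate 1 and 1 without wild-type replicate 3. All 9 had a log2 fold change above 0 in pine1, with a median of 0.14, against a median of -3.61e-05 over all genes tested. The summed level of the clock loci ranged from 57215 to 69236 normalized reads in pine1 and from 53260 to 60797 in wild type, and none of them was at 0 in any library. GI, an output gene of the clock, had 1218, 1599 and 1977 normalized reads in pine1, against 1112, 1071 and 1278 in wild type (limma adjusted p = 0.131). The authors' deposited table lists GI at -0.47 for wild type over pine1, with a DESeq2 adjusted p of 0.0124. All 9 clock loci, GI among them, had their lowest pine1 value in replicate 1, the library with the most PIL13 reads. The other 2 clock loci with an unadjusted p under 0.05 had larger log2 fold changes than GI (0.45). Os09g0532400 had 1255, 2229 and 2203 normalized reads in pine1, against 793, 1001 and 1286 in wild type (log2 0.86, SE 0.23, limma adjusted p = 0.0624). Os01g0971800 had 20.3, 38.4 and 22.6 in pine1, against 17.5, 12.5 and 8.55 in wild type (log2 1.02, SE 0.36, limma adjusted p = 0.147). The part of the clock, and of the meristem and leaf markers above, in the PIL13 result was not tested.

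PIL15 is a relative of PIL13 that in rice is known for limiting grain size. PIL15 (Os01g0286100, chromosome 1) had 472, 666 and 553 normalized reads in pine1, against 614, 637 and 715 in wild type. Replicates 1 and 3 of pine1 were below all wild-type libraries, and pine1 replicate 2 was within their range. The mean was 563 ± 97.7 normalized reads in pine1 and 655 ± 52.8 in wild type (SD, n = 3 each) (log2 -0.23, SE 0.12, limma adjusted p = 0.339). The 95% interval of the fold runs from 0.703 to 1.04. Without pine1 replicate 1 the log2 fold change was -0.11, and without pine1 replicate 2 it was -0.36.

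Reads of PIL13 were 1.13, 0.584 and 0.837 of those of PIL15 in pine1 replicates 1 to 3, against 0.530, 0.519 and 0.398 in wild type. The ratio was above the wild-type range in every pine1 library, though pine1 replicate 2 exceeded wild-type replicate 1 by little. The log2 ratio was 0.77 higher in pine1 (two-sided exact permutation p = 0.1, the smallest possible here), 0.55 higher without pine1 replicate 1 and 1.02 higher without pine1 replicate 2. Across the 6 libraries the log2 levels of PIL13 and PIL15 ran against each other (Pearson r = -0.90, n = 6, a description that includes the difference between genotypes). Among the pine1 libraries, the one with the most PIL13 had the least PIL15, and the one with the least PIL13 had the most PIL15. In wild type, replicate 3 had the least PIL13 and the most PIL15, but replicate 2 had more of both than replicate 1.

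**Figure D2:**
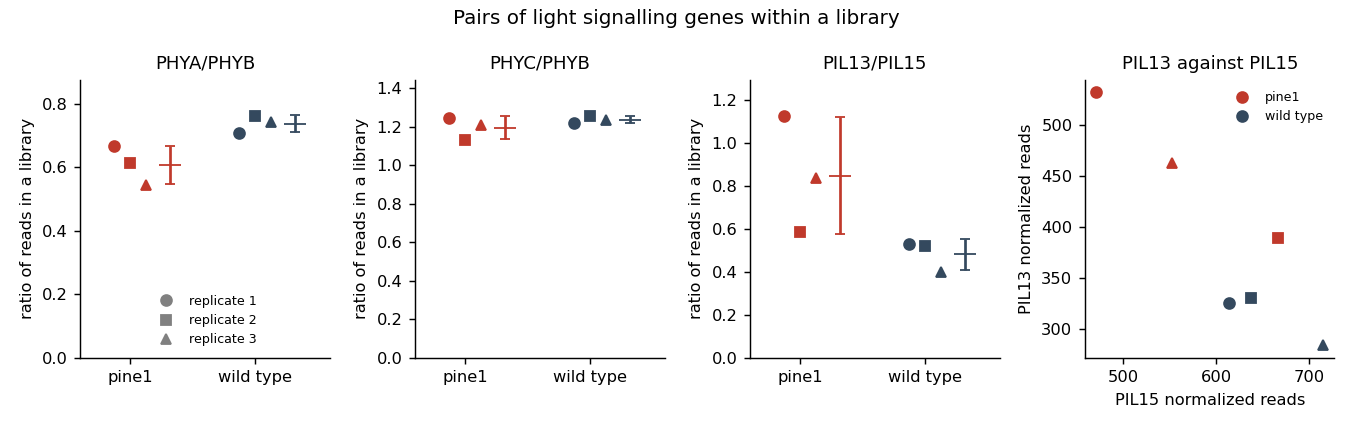
The first 3 panels show ratios of reads between a pair of genes in each library (vertical axes, from 0), with the mean and SD of each genotype (n = 3). The last panel sets PIL13 against PIL15 in normalized reads, on axes that do not start at 0. The pine1 libraries are below wild type for PHYA over PHYB, overlap for PHYC over PHYB, and are above for PIL13 over PIL15, where r across libraries was -0.90.

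Downstream of the receptors, COP1 is the regulator that active photoreceptors hold back, and in rice its loss is known to prolong the juvenile phase, hence the name PETER PAN SYNDROME. COP1 (Os02g0771100, chromosome 2) had 2870, 3425 and 3349 normalized reads in pine1, against 2681, 3039 and 3041 in wild type. Pine1 replicate 1 was within the wild-type range and the other pine1 libraries were above it. The mean was 3214 ± 301 normalized reads in pine1 and 2920 ± 207 in wild type (SD, n = 3 each). On the log2 scale pine1 differed by 0.14 (SE 0.08, limma adjusted p = 0.374), and the 95% interval of the fold runs from 0.971 to 1.24. The log2 fold change was 0.22 without pine1 replicate 1 and 0.08 without wild-type replicate 1.

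All 6 genes varied more among the pine1 libraries than among the wild-type libraries on the log2 scale. The same held for 58.8% of all genes tested, with a median SD of 0.126 in pine1 and 0.105 in wild type over all genes. Over the 6 genes the median SD was 0.123 in pine1 and 0.0718 in wild type. The lowest count in a library was 298 reads, for PIL13 in wild type.

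Genes that varied most like each of the 6 across the 6 libraries were looked for among 18032 others with a mean of at least 100 normalized reads, by Pearson's r on the log2 scale. The closest were Os07g0616750, a hypothetical gene, for PHYA (r = 0.996), Os07g0182100 for PHYB (r = 0.992), Os03g0127700 for PHYC (r = 0.996), Os06g0601000 for PIL13 (r = 0.995), Os09g0133700 for PIL15 (r = 0.996) and Os08g0107400 for COP1 (r = 0.998). An r of 0.95 was reached by between 26 genes, for PIL15 (0.144% of those searched), and 178 genes, for PHYA (0.987%). Among the 6 genes themselves, PHYB and PHYC had the highest r (0.85), and PHYA ran against PHYB (r = -0.88). Each r here is a description that includes the difference between genotypes.

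Beside the 6 genes, 34 loci of the wider light pathway were listed from memory of rice loci, and all 34 were tested. By limma 4 of them rose and 1 fell, which left 29 that were not called. The 1 that fell, Os11g0235700, was listed with its fall already known, so it is not independent evidence. Over all genes tested, 4.02% were called higher and 2.44% lower. The median log2 fold change was 0.03 over the 34, against -3.61e-05 over all genes. Of the 22 among them that are not genes of chlorophyll or antenna proteins, 0 rose and 1 fell by limma, again Os11g0235700. Among these 22, edgeR called 1, DESeq2 called 1, and 3 had an unadjusted p under 0.05.

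The 4 other listed PIL loci had log2 fold changes of -0.23 to -0.005, and 0 were called by limma, edgeR or DESeq2 or had an unadjusted p under 0.05. The groups of these 4 overlapped. Of 9 listed blue-light receptor loci, 0 were called by limma, edgeR or DESeq2 and 0 had an unadjusted p under 0.05, with log2 fold changes of -0.16 to 0.32. Of 2 loci listed for synthesis of the phytochrome chromophore, the light-absorbing pigment of all phytochromes, 0 were called by limma, edgeR or DESeq2. The 1 with an unadjusted p under 0.05, Os06g0603000, had 1334, 1111 and 1245 normalized reads in pine1, against 1091, 1000 and 1063 in wild type, with a limma adjusted p of 0.138.

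**Figure D3:**
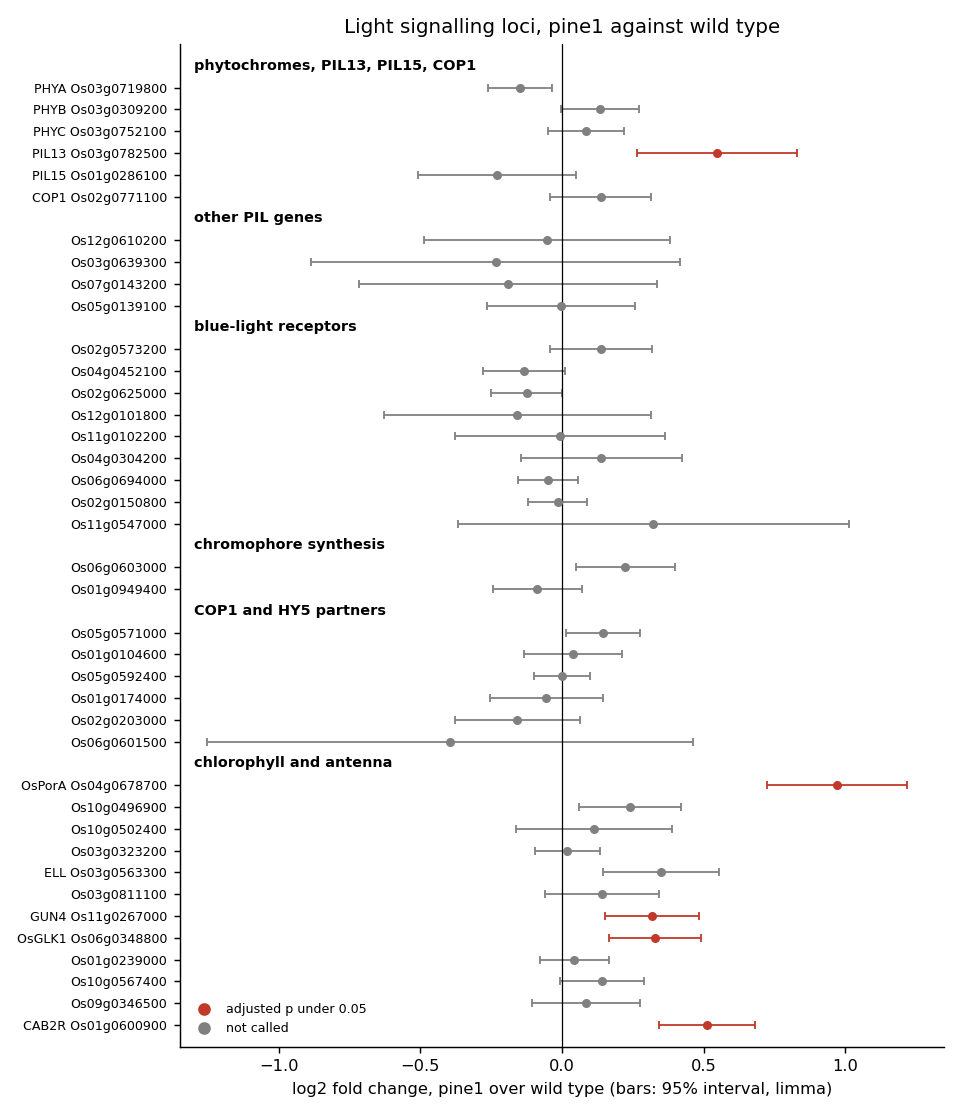
Log2 fold change of pine1 over wild type (horizontal axis) with its 95% interval from limma, for the 6 genes and 33 of the 34 further loci; red marks an adjusted p under 0.05. Os11g0235700 is left off because its value of -3.93 lies outside the axis. PIL13, OsPorA, GUN4, OsGLK1 and CAB2R are the called loci shown, all higher in pine1.

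Among 7 loci listed as partners of COP1, HY5 or phytochrome A, the 1 that fell was Os11g0235700, described in the authors' deposited table as similar to FHY1. In Arabidopsis, FHY1 carries phytochrome A into the nucleus. Os11g0235700 had 32.9, 29.3 and 38.3 normalized reads in pine1, against 540, 516 and 511 in wild type. The groups lay far apart, with a log2 fold change of -3.93 (SE 0.14, limma adjusted p = 7.98e-07). This gene entered the list with its fall already known. The other 6 loci of this list did not pass and had log2 fold changes of -0.40 to 0.15. The 1 of these 6 with an unadjusted p under 0.05 was Os05g0571000. It had 2732, 3111 and 2893 normalized reads in pine1, against 2564, 2633 and 2688 in wild type (limma adjusted p = 0.190). Its groups did not overlap, as held with pine1 higher for 13.5% of all genes tested.

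Of 12 listed genes of chlorophyll synthesis, its regulators and antenna proteins, whose transcripts in plants respond to light, 4 rose, 0 fell and 8 did not pass, beside 4.02% called higher over all genes. The list was chosen with earlier results of these data known, so this count is not independent evidence. All 12 had a log2 fold change above 0, with a median of 0.19. The summed level of the 12 ranged from 96062 to 110400 normalized reads in pine1 and from 77642 to 86862 in wild type. OsPorA (Os04g0678700), whose enzyme makes the light-dependent step of chlorophyll synthesis, had 8601, 10043 and 11903 normalized reads in pine1, against 4722, 5121 and 5639 in wild type. Every pine1 library was well above wild type, and OsPorA rose 1.96-fold (log2 0.97, SE 0.11, limma adjusted p = 0.0012).

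OsGLK1 (Os06g0348800), a transcription factor of chloroplast development, had 3909, 4145 and 4688 normalized reads in pine1, against 3269, 3276 and 3577 in wild type (log2 0.33, SE 0.07, limma adjusted p = 0.0279). GUN4 (Os11g0267000), which activates the magnesium chelatase, had 2488, 2676 and 3057 in pine1, against 2226, 2194 and 2147 in wild type (log2 0.32, SE 0.07, limma adjusted p = 0.0357). Neither group pair overlapped, but the OsGLK1 call was lost when pine1 replicate 2 or 3 or wild-type replicate 1 or 2 was left out (adjusted p up to 0.109), and the GUN4 call was kept only when pine1 replicate 1 was the one left out (up to 0.111). CAB2R (Os01g0600900), a chlorophyll-binding antenna gene of a family with near-identical copies whose reads can be shared, had 29129, 31313 and 35418 in pine1, against 21397, 24078 and 21707 in wild type (log2 0.51, SE 0.075, limma adjusted p = 0.0045). ELL (Os03g0563300), a subunit of the magnesium chelatase, had 2130, 2247 and 2784 in pine1, against 1876, 1864 and 1840 in wild type; it missed the limma threshold (adjusted p = 0.0559) but the authors' deposited table lists it, with an adjusted p of 0.0042. The sum of the leaf blade markers given above is mostly reads of 2 antenna genes that this list also holds, so it moves with the list by construction. The 3 other leaf blade markers, loci of the Rubisco small subunit, had log2 fold changes of 0.27 (not called), 0.41 (called) and -0.25 (not called), and the part of leaf tissue in these results was not tested.

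**Figure D4:**
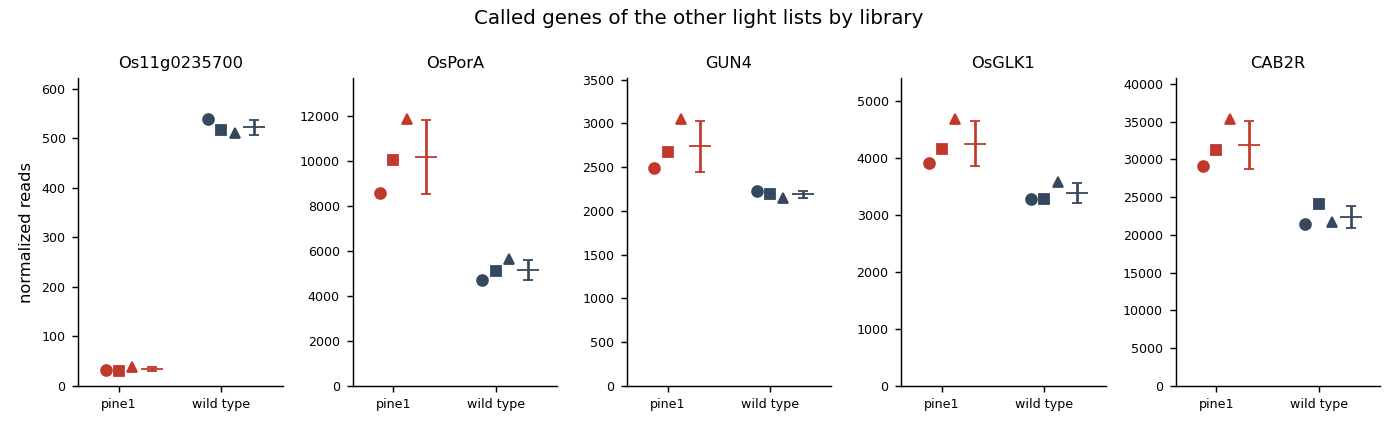
Normalized reads (vertical axes, from 0) by library for the 5 called loci among the 34 further light loci, with the mean and SD of each genotype (n = 3). Circles, squares and triangles are replicates 1, 2 and 3; Os11g0235700 lies at 29.3 to 38.3 in pine1 and at 511 to 540 in wild type, and the other 4 are higher in every pine1 library.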

How the data were processed

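Libraries were made from oligo(dT)-enriched RNA with random hexamers, per the labels' protocols, which do not mention strand, so reads of antisense genes may be mixed in. The tools were STAR, HTSeq, FastQC and DESeq2 with genome build IRGSP-1.0, per the submitters' processing notes. The deposited sheet stacks a table of normalized reads above the authors' own DESeq2 comparison. The normalized reads are a signal, deposited as gene counts over a size factor for each library: 100% of values in each library were whole multiples of 1 step within 0.001 reads, so whole reads were recovered. Genes with fewer than 10 reads over all libraries are not analysed here.

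Here genotype was fitted to log2(normalized reads + 1) in limma 3.58.1 (R 4.3.3, intensity trend, Benjamini-Hochberg), without a replicate block. Genes were kept by filterByExpr of edgeR 4.0.16 on recovered reads (minimum count 10), which left 24149. All 6 genes passed. Alternatives were edgeR's quasi-likelihood test (on recovered reads, calling 979 genes higher and 589 lower), DESeq2 1.42.0, 2 scalings, 2 pseudocounts, 2 filters, the replicate block and leaving out each library. Ratios were tested with an exact permutation test (scipy 1.17.1). The script was tested on simulated data, in 1 draw, where false calls were a larger share of limma's calls than the threshold of 0.05 allows. Adjusted p-values just under it may be too small, but calls near the threshold were not counted apart.

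The 6 genes were named by rule; further loci were counted, those called were described, and the genes most alike were found by Pearson's r. The genes and lists were chosen with earlier results of these data known. Loci of the lists were written from memory and are given a symbol only where the authors' deposited table has one, which of the 6 genes holds for PIL13; names of the other 5 come with the choice of loci.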

Additional observations from a re-analysis of the deposited data

How the results depend on the processing

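PIL13 was called under all 9 alternatives that kept every library (log2 0.53 to 0.56, limma, edgeR or DESeq2 adjusted p 0.0029 to 0.0422). Leaving out 1 library gave log2 0.438 to 0.662 and between 0 and 1 called gene of the 6, with the call kept only without pine1 replicate 2. PHYA, PHYB, PHYC, PIL15 and COP1 were not called under any of the 15 alternatives and kept their sign in all of them. The lowest adjusted p was 0.108 for PHYA, 0.115 for PHYB, 0.346 for PHYC, 0.117 for PIL15 and 0.117 for COP1. Over all genes, 970 were higher and 589 lower in pine1; leaving out 1 library gave 570 to 760 higher and 266 to 550 lower, and a mean of at least 5 CPM left 16529 genes with 573 higher. Of the 34 further light loci, 2 to 5 rose when 1 library was left out. The count was 2 with pine1 replicate 2, pine1 replicate 3, or either of wild-type replicates 1 and 2 removed. In every such fit 1 fell, Os11g0235700, which was listed with its fall already known.

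With the replicate block, PIL13 had an adjusted p of 0.0253, and 1195 genes were higher and 799 lower. The labels do not say what a replicate number shares; deviations of same-numbered libraries correlated by 0.0551, 0.0225 and 0.134, and 2 of the 6 libraries correlated best with their own number. The block gave 5 rises among the 34 loci and 2 among the 9 clock loci. Of these 9, Os08g0157600, Os02g0618200, Os07g0695100 and Os03g0284100 rose from replicate 1 to 2 to 3 in both genotypes, and the others did not. For Os03g0284100 the normalized reads were 591, 695 and 800 in pine1 and 514, 639 and 746 in wild type. What lies behind this shared order was not tested. The ratio differences kept their sign under both pseudocounts and every left-out library. Upper-quartile scaling moved the median of all genes by -0.01 on the log2 scale. For PHYA the coefficient of variation was below that from counting of reads alone in wild type (1.47% beside 2.21%). In pine1 it was above it (2.84% beside 2.41%). The part of depth in the precision of PHYA was not tested.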

Other observations

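Other genes with light signalling words in their annotation were searched in the authors' deposited table, with words chosen after values were seen. That table holds genes picked on these same libraries, so the counts are not independent evidence. Of 8 matches tested, 3 rose, 3 fell and 2 did not pass by limma. OsbHLH101 (Os04g0618600), described as similar to HFR1, a bHLH regulator of far-red responses in Arabidopsis, had 441, 482 and 496 normalized reads in pine1, against 732, 664 and 710 in wild type (log2 -0.57, SE 0.08, limma adjusted p = 0.0036). OsBBX22 (Os06g0713000), a B-box zinc finger gene, had 145, 132 and 170 in pine1, against 64.4, 75.0 and 71.8 in wild type (log2 1.07, SE 0.16, adjusted p = 0.0044). OsG1L8 (Os05g0472000), described as similar to LSH6, had 690, 792 and 589 in pine1, against 1178, 1156 and 1000 in wild type (log2 -0.69, SE 0.11, adjusted p = 0.0071). These 3 calls held without any 1 library.

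The other 3 calls were each lost when any of 5 of the 6 libraries was left out. OsBBX14 (Os05g0204600), described as a flowering repressor, had 319, 244 and 212 normalized reads in pine1, against 142, 170 and 166 in wild type (log2 0.68, limma adjusted p = 0.0410, up to 0.142 without a library). OsCOL4 (Os02g0610500), also described as a flowering repressor, had 2394, 2311 and 2414 in pine1, against 1983, 2079 and 1983 in wild type (log2 0.24, adjusted p = 0.0238, up to 0.0955). Os05g0566600, described as similar to a negatively light-regulated protein, had 949, 915 and 1037 in pine1, against 1279, 1174 and 1163 in wild type (log2 -0.32, adjusted p = 0.0304, up to 0.123). OsIAA2 (Os01g0190300; adjusted p = 0.0790) and OsBBX24 (Os08g0178800; adjusted p = 0.0712) did not pass.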
